A study of Drosophila melanogaster with 8 samples.

Results

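The 7 genes that set or mark the enteroendocrine fate in the fly midgut, pros, sc, ase, dimm, tap, mirr and phyl, were looked up by symbol in the deposited expression table. All 7 members were among its 19299 features. The 4 Que samples were midguts of wild-type female flies, 40 to 50 days old by the labels, fed quercetin (Que) at 10 µM. The 4 DMSO samples were midguts of wild-type female flies of the same age fed the solvent. Each sample was a pool of dissected midguts of all cell types, so the RNA of a rare cell type was a small share of the total, and fewer cells of a type could not be told apart from less RNA per cell. The comparison asks whether Que feeding of old flies changed the RNA of these fate genes.

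Enteroendocrine cells (EEs) are the hormone-secreting cells of the midgut epithelium and arise from intestinal stem cells (ISCs) through short-lived EE progenitors. A pulse of the proneural factor Scute starts this path, Prospero then marks and maintains the EE identity, and Notch signaling holds proneural genes back. Mature EEs make peptide hormones such as tachykinin and allatostatins and carry the machinery that processes and releases them.

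None of the 7 members differed between the midguts of Que-fed flies and those of the DMSO group beyond the spread between samples. The log2 fold changes ran from −0.30 for dimm to 0.26 for sc, with 3 members higher and 4 lower with Que. In the fit over 13249 genes, 0 of 7 members had an unadjusted p under 0.05 (limma), where 3.62% of all genes tested did. The count at an adjusted p under 0.05 was 0 of 7 members and 0% of all genes tested, with limma on RPKM and with limma's voom on the recovered reads, which called 479 and 450 genes at an unadjusted p under 0.05. No member had an adjusted p below 0.946 (limma, Benjamini-Hochberg). Likewise, the groups overlapped in all 7 members, where 2.14% of the genes tested had groups that did not overlap. The median log2 fold change was −0.0045 over the members and −0.016 over all genes tested.

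**Figure D1:**
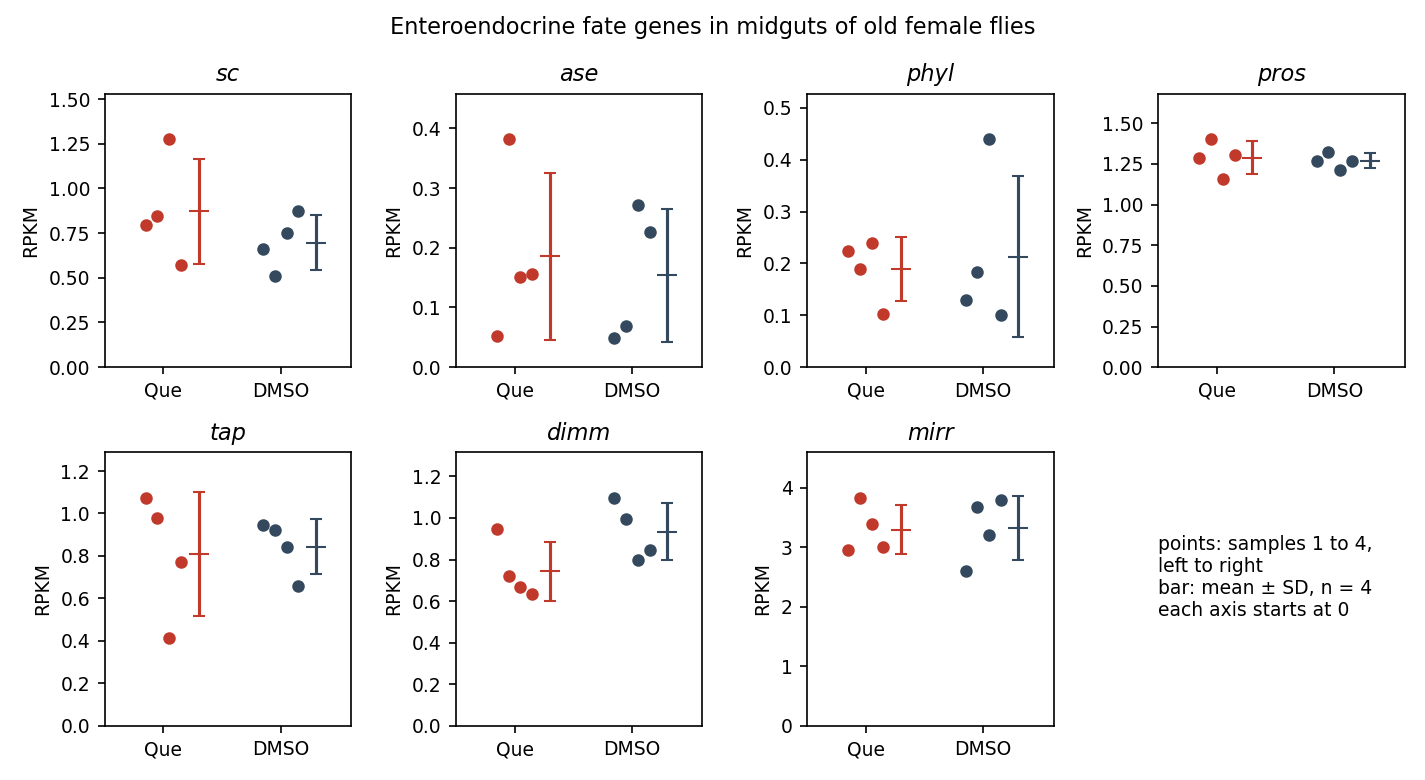
Level of each of the 7 fate genes in RPKM (each vertical axis starts at 0) in the 4 Que samples and the 4 DMSO samples, with the mean and SD of each group beside the points. The groups overlap in every panel, and dimm has 3 of its 4 Que samples below all DMSO samples.

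Levels are in RPKM, that is, reads divided by the gene's length in kilobases and scaled to 1000000 reads on genes in each sample, which allows genes of different length to be compared. Per length, the order over the 8 samples was mirr (3.31 ± 0.442 RPKM), pros (1.28 ± 0.0733), dimm (0.839 ± 0.165), tap (0.827 ± 0.211), sc (0.785 ± 0.237), phyl (0.201 ± 0.110) and ase (0.170 ± 0.118), as mean and SD over 8 samples. The steps from mirr to pros, from pros to dimm and from sc to phyl held in 8 of 8 samples, and the ranges of these neighbours lay apart. This does not extend to all other pairs. In Que 3, sc exceeded pros (1.28 against 1.16 RPKM), so the ranges of pros and sc overlapped. Those of tap and phyl overlapped too, with tap at 0.413 RPKM in Que 3 and phyl at 0.440 RPKM in DMSO 3. By contrast, dimm, tap and sc could not be ranked, since dimm exceeded tap in 4 of 8 samples and tap exceeded sc in 6. Nor could phyl and ase, as phyl was the higher of both in 5 of 8 samples. All 7 stood below the median level of the genes tested, 4.59 RPKM. The percentile of the mean level was 45.0 for mirr and 8.51 for ase.

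Counted in reads, no member was at the detection limit, which was taken as 3 reads in a sample. The reads assigned per sample, 27253832 to 35619139, were inferred by taking a sample's smallest RPKM times length above 0 as 1 read. Scaled by these totals, RPKM times length gave whole reads, which were taken as the reads behind each RPKM value. Their median over the 8 samples was 1029.5 for pros, 393.5 for mirr, 89.5 for dimm, 64 for tap, 36 for sc, 12 for phyl and 11 for ase. The members closest to the limit were ase, with 4 reads in Que 1 and in DMSO 1, and phyl, with 6 reads in Que 4 and in DMSO 4. Among the other genes of the achaete-scute complex, l(1)sc was at the limit, with 2 reads in Que 4, 2 in DMSO 3 and 0 in the other samples, and ac was not analysed here.

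**Figure D2:**
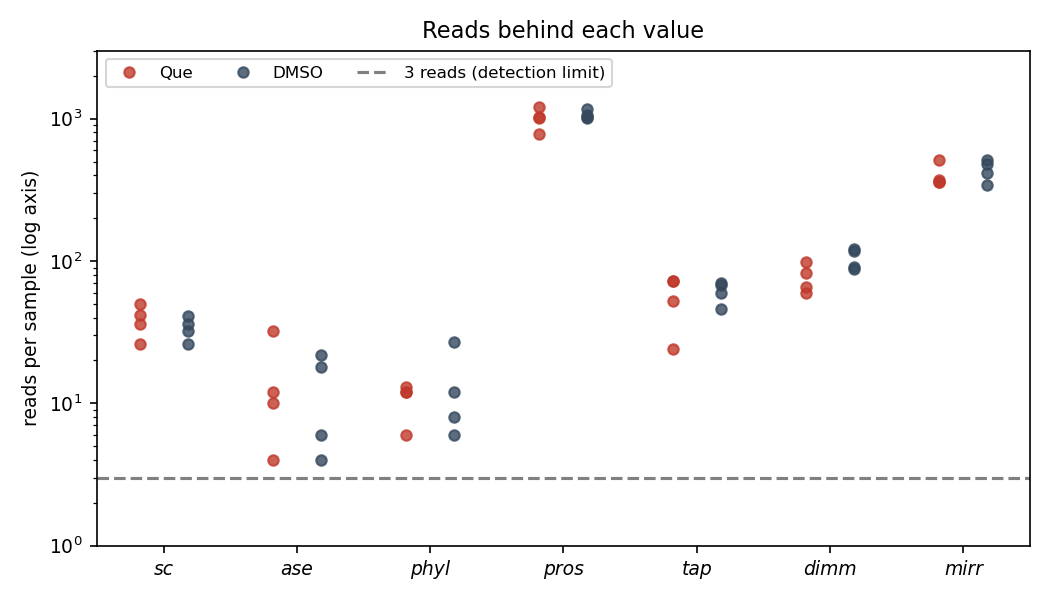
Reads per sample behind each value (log axis) for the 7 fate genes in Que and DMSO samples, with a dashed line at 3 reads. pros lies between 784 and 1203 reads, and the lowest points, ase in Que 1 and DMSO 1, lie at 4 reads just above the line.

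Most read numbers were even, 43 of 56 among the member values. Among all features with 1 to 20 reads, 66.7% to 69.8% of the values in each Que sample and 67.4% to 68.8% in each DMSO sample were even. Between 572 and 677 features of a sample held 1 read, against 1271 to 1435 with 2 reads. Whether both mates of a read pair were counted separately is not given in the sources used here. If so, 4 reads of ase would stand for 2 fragments. Counted as fragments, ase in Que 1, DMSO 1 and DMSO 2 and phyl in Que 4 and DMSO 4 would then be at or below a limit of 3.

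Scute, the proneural basic helix-loop-helix (bHLH) factor whose transient rise commits a stem cell to the EE path, is encoded by sc (Dmel_CG3827, chromosome X, 396060 to 397497, a single exon of 1438 bases on Release 6 plus ISO1 MT). It had 0.796, 0.847, 1.28 and 0.572 RPKM in Que samples 1 to 4, against 0.660, 0.508, 0.750 and 0.871 RPKM in DMSO samples 1 to 4. Que 3 held the highest value and DMSO 2 the lowest, and the groups overlapped. For sc, Que minus DMSO gave a log2 fold change of 0.26 (standard error 0.26, 95% interval −0.33 to 0.85, exact permutation test, p = 0.371). It was 0.078 without Que 3, 0.14 without DMSO 2 and 0.42 without Que 4.

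Asense, a bHLH factor of the same gene complex that is otherwise known from neural precursors and is found in EE progenitors, is encoded by ase (Dmel_CG3258, chromosome X, 460747 to 463176, a single exon of 2430 bases). Its values were the most uneven of the 7, at 0.0523, 0.382, 0.151 and 0.156 RPKM in Que samples 1 to 4, against 0.0488, 0.0693, 0.271 and 0.226 RPKM in DMSO samples 1 to 4. The reads were 4, 32, 10 and 12 with Que, and 4, 6, 22 and 18 with DMSO. High and low samples occurred in both groups, with a 7.83-fold range over the 8 samples. The coefficient of variation was 69.6%, where counting alone gives 27.2% for independent reads and 38.5% for fragments of 2 reads each. For ase, the log2 fold change was 0.16 (exact permutation test, p = 0.714), with a standard error of 0.46. The 95% interval ran from −0.89 to 1.21, or from 0.539-fold to 2.31-fold in RPKM + 0.1. As ase averaged only 0.170 RPKM, these values understate folds of ase itself. With 0.01 RPKM added in place of 0.1, the log2 fold change was 0.27. With 0.1 added, the direction of ase turned without Que 2, at −0.14, without DMSO 1, at −0.062, and without DMSO 2, at −0.00032.

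Phyllopod is not a transcription factor but an adaptor that, with the ubiquitin ligase Sina, brings about the removal of the repressor Tramtrack and so acts below Scute in EE specification. Its gene phyl (Dmel_CG10108, chromosome 2R, 14427336 to 14432337) has 2 exon blocks and a length of 1839 bases. It had 0.225, 0.189, 0.239 and 0.103 RPKM in Que samples 1 to 4, against 0.129, 0.183, 0.440 and 0.0997 RPKM in DMSO samples 1 to 4. DMSO 3, with 27 reads, was the only sample above 13 reads. For phyl, the log2 fold change was −0.027 (standard error 0.38, 95% interval −0.89 to 0.83, exact permutation test, p = 1), and it was 0.27 without DMSO 3, 0.13 without Que 4 and −0.21 without DMSO 4.

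Prospero, the homeodomain factor used as the standard marker of EEs, was the most even member. Its gene pros (Dmel_CG17228, chromosome 3R, 11328480 to 11407627) had 1.29, 1.40, 1.16 and 1.30 RPKM in Que samples 1 to 4, against 1.27, 1.32, 1.21 and 1.27 RPKM in DMSO samples 1 to 4. The group means were 1.29 ± 0.101 RPKM in Que samples and 1.27 ± 0.0454 RPKM in DMSO samples (SD, n = 4 each), and the highest and the lowest sample were both Que samples. Que minus DMSO gave a log2 fold change of 0.017 for pros (standard error 0.14; exact two-sided permutation test, p = 0.83). Its 95% interval of −0.30 to 0.34 corresponds to 0.811-fold to 1.26-fold in RPKM + 0.1, the narrowest of the 7 members. The standard error of 0.14 from limma exceeds the SD of the log2 level of pros over the 8 samples, 0.077. This interval thus rests in large part on the spread of other genes.

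The length assigned to pros, 24892 bases in 9 exon blocks, bears on its level. The longest block of 15710 bases makes up 63.1% of this length and contains 177 of the 5592 coding bases in the Ensembl annotation of the same assembly. The reads are given per gene and not per exon, so the part of the gene they came from is unknown, and the rank of pros by RPKM depends on this length. The libraries also differed in a trend of expression on gene length. Spearman's rho between a gene's deviation from its mean and its length, over 9593 genes, was −0.29, 0.47, −0.34 and 0.014 in Que samples 1 to 4, against −0.049, 0.44, 0.025 and 0.13 in DMSO samples 1 to 4. The highest pros value of each group fell in the sample with the highest rho, Que 2 and DMSO 2. The lowest value with Que fell in the sample with the lowest rho, Que 3, but with DMSO it fell in DMSO 3, while DMSO 1 had the lowest rho. With each sample's trend removed the log2 fold change of pros was 0.20 and stayed short of the threshold. The part of this trend in the level of pros was otherwise not tested.

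Tap, a bHLH factor of the Neurogenin family that is expressed in EEs, had 1.07, 0.981, 0.413 and 0.772 RPKM in Que samples 1 to 4, against 0.947, 0.923, 0.844 and 0.660 RPKM in DMSO samples 1 to 4 (Dmel_CG7659, chromosome 3L, 17359682 to 17361811, a single exon of 2130 bases). Que 3, with 24 reads, was the lowest and Que 1 the highest, so both ends of the range for tap were Que samples. A log2 fold change of −0.11 was obtained for tap (standard error 0.28, 95% interval −0.74 to 0.52, exact permutation test, p = 0.800). Without Que 3 it turned to 0.14.

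Dimmed, a bHLH factor that raises the capacity of peptidergic cells to store and secrete their peptides, showed the largest difference of the 7. Its gene dimm (Dmel_CG8667, chromosome 2L, 21331756 to 21342155, 3295 bases in 3 exon blocks) had 0.946, 0.722, 0.668 and 0.634 RPKM in Que samples 1 to 4, against 1.10, 0.997, 0.800 and 0.844 RPKM in DMSO samples 1 to 4. Que samples 2 to 4 lay below every DMSO sample and Que 1 lay within the DMSO range. The means for dimm were 0.742 ± 0.140 RPKM in Que samples and 0.935 ± 0.138 RPKM in DMSO samples (SD, n = 4 each). The difference of −0.30 on the log2 scale (standard error 0.19, 95% interval −0.74 to 0.14) did not pass the test (limma, unadjusted p = 0.156, adjusted p = 0.946, exact permutation test, p = 0.114). It was −0.15 with a pseudocount of 1 RPKM, which exceeds the mean level of dimm, 0.839 RPKM. With a pseudocount of 0.01 RPKM it was −0.33, and with voom on the recovered reads −0.34. When single samples were left out it ran from −0.41 to −0.23, always lower with Que.

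Mirror, an Iroquois-family homeodomain factor found in part of the EE population, is encoded by mirr (Dmel_CG10601, chromosome 3L, 12693639 to 12710249, 3892 bases in 5 exon blocks), the most abundant member per length. It had 2.95, 3.83, 3.38 and 3.01 RPKM in Que samples 1 to 4, against 2.61, 3.68, 3.21 and 3.78 RPKM in DMSO samples 1 to 4. DMSO 1 was the lowest sample and Que 2 the highest. The log2 fold change of mirr was −0.0045 (standard error 0.16, 95% interval −0.36 to 0.35, exact permutation test, p = 1). With a coefficient of variation of 13.4%, against 6.91% from counting fragments of 2 reads each, the spread of mirr between samples exceeded counting error.

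**Figure D3:**
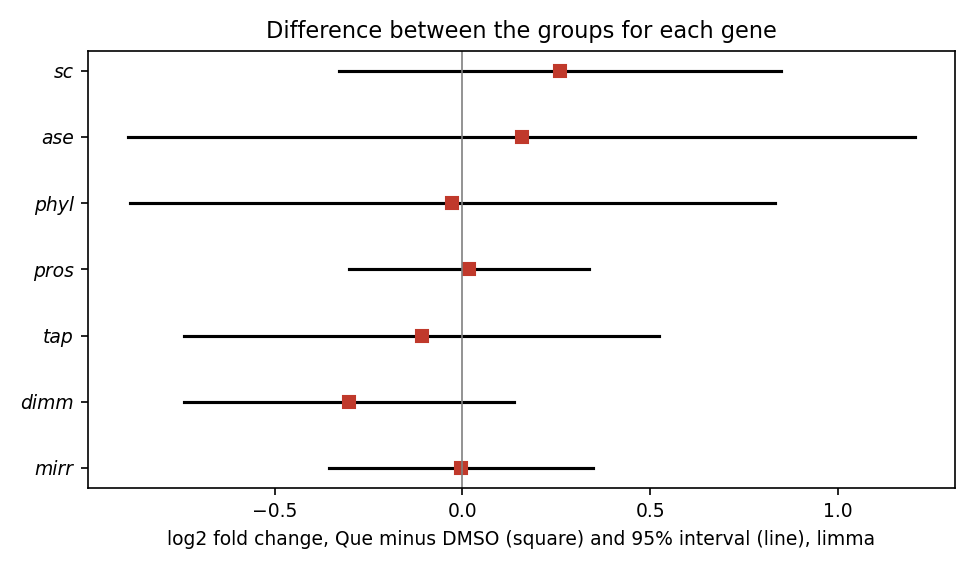
Log2 fold change (Que minus DMSO, limma on log2(RPKM + 0.1)) of each fate gene as a square with its 95% interval as a line. Every interval includes 0, and the widest belong to ase (−0.89 to 1.21) and phyl (−0.89 to 0.83).

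The members did not all rise and fall together across samples, though some shared their highest or lowest sample. Correlations between members were not computed. Que 3 held the highest sc value and the lowest tap and pros values of the 8 samples. DMSO 3 held the highest phyl value, and Que 2 held the highest values of ase, pros and mirr. The 3 genes whose level ran most parallel to pros were ema, Strip and Pits, with an SD of the log2 ratio to pros over the 8 samples of 0.026, 0.035 and 0.039, where the median of 9153 genes was 0.23. For pros itself the SD of the log2 level was 0.077, which is also what a gene of constant level would score. An even level alone thus places a gene ahead of most by this measure, and the 3 genes named scored lower still. Of the members' exons, only those of pros shared bases with another feature, 72 bases with the antisense CR46008, which held 0 to 2 reads.

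**Figure D4:**
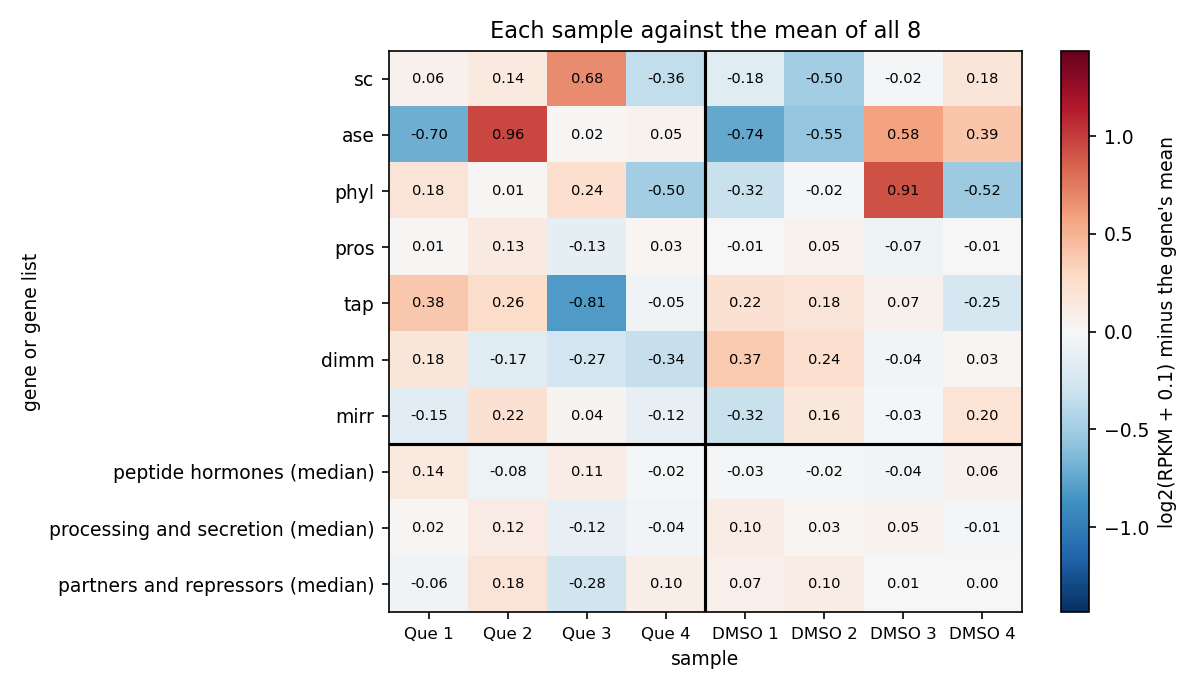
Difference of each fate gene from its own mean over the 8 samples, on the log2(RPKM + 0.1) scale, with Que samples left of the vertical line and DMSO samples right of it; the bottom 3 rows are medians of gene lists. The largest differences are 0.96 for ase in Que 2 and 0.91 for phyl in DMSO 3, and the row of pros stays within −0.13 to 0.13.

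The genes that act on the members or beside them were taken as a list. Of 17 partners and repressors listed, 16 were in the table and 14 were tested, of which 0 were higher and 1 was lower with Que at an unadjusted p under 0.05 (limma), where 1.68% of all genes tested were higher and 1.93% lower. Their median log2 fold change was −0.043. The lower gene was sli, whose product Slit is the EE-derived ligand that acts on Robo2 in stem cells and limits the making of new EEs. sli had 9.62, 13.5, 8.03 and 10.7 RPKM in Que samples 1 to 4, against 13.5, 13.7, 14.6 and 12.8 RPKM in DMSO samples 1 to 4. From lowest to highest, the order of the Que samples in sli was that of rho in the length trend given above (Que 3, Que 1, Que 4, Que 2). In the DMSO samples the 2 orders differed. The part of the length trend in sli was not tested. The log2 fold change of sli was −0.40 (standard error 0.15, limma unadjusted p = 0.0250, adjusted p = 0.946), and Que 2 lay within the DMSO range (exact permutation test, p = 0.0857). Its receptor gene robo2 averaged 2.09 ± 0.486 RPKM in Que samples and 1.97 ± 0.337 RPKM in DMSO samples (SD, n = 4 each). This gene and da, ttk, sina and esg below were picked for their roles after their values were seen.

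The most abundant of these genes was emc, which encodes a partner-binding inhibitor of proneural bHLH factors, at 53.4 ± 6.28 RPKM in the 4 Que samples and 49.1 ± 5.75 RPKM in the 4 DMSO samples (mean and SD). The common bHLH partner da averaged 24.8 RPKM in Que samples and 26.0 RPKM in DMSO samples. For lola, a gene of BTB zinc finger factors, the Que samples averaged 10.1 ± 2.33 RPKM and the DMSO samples 11.3 ± 0.867 RPKM (SD). Tramtrack's gene ttk had a mean of 10.6 RPKM in Que and 11.1 RPKM in DMSO samples. For sina these means were 4.91 RPKM in Que and 5.30 RPKM in DMSO samples. The stem cell factor gene esg, whose product holds back differentiation, was at 18.5 RPKM in Que and 17.9 RPKM in DMSO samples. The groups overlapped in each of these genes.

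Of 12 genes of Notch signaling and of the E(spl) repressors, 9 were tested and 0 of 9 had an unadjusted p under 0.05 (limma), with a median log2 fold change of −0.081. The receptor gene N averaged 1.79 ± 0.719 RPKM in Que samples, against 2.48 ± 0.332 RPKM in DMSO samples (SD, n = 4 each). This is −0.52 ± 0.28 on the log2 scale (difference and standard error). As in sli, the Que samples had the same order in N as in rho of the length trend, and the DMSO samples did not. The part of that trend in N was not tested. E(spl)mgamma-HLH, a bHLH repressor induced by Notch, averaged 0.690 ± 0.101 RPKM in Que samples, against 0.452 ± 0.157 RPKM in DMSO samples (SD, n = 4 each), or 0.56 ± 0.26 on the log2 scale. Both missed the threshold, and their groups overlapped. The ubiquitin ligase gene neur, at 21.3 RPKM with Que and 20.6 RPKM with DMSO, was the most abundant of this list. Among the 3 genes below the filter, E(spl)m5-HLH, picked out after its values were seen, had 0 reads in all 4 Que samples, against 0.0318 to 0.204 RPKM in the 4 DMSO samples, or at most 6 reads (exact permutation test, p = 0.0286, the smallest possible).

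The products of EEs were present in every sample, at levels above those of most fate genes. All 13 peptide hormone genes listed were tested, 7 were higher and 6 lower with Que on average, and 0 of 13 had an unadjusted p under 0.05 (limma). Their summed level was 1192 to 1640 RPKM in Que samples and 1169 to 1446 RPKM in DMSO samples. Tk, which encodes tachykinin, averaged 757 ± 171 RPKM in Que samples and 727 ± 113 RPKM in DMSO samples (SD, n = 4 each). The smallest unadjusted p values of the hormones belonged to Dh31 (log2 fold change 0.25, standard error 0.12) and AstC (0.28, standard error 0.15), whose groups overlapped. The median log2 fold change of the hormones was 0.045.

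For peptide processing and regulated secretion, a role that Dimmed is known to promote, 0 of 12 genes had an unadjusted p under 0.05 (limma), and the median log2 fold change was −0.062. The amidating enzyme gene Phm, a known direct target of Dimmed, averaged 83.9 ± 19.3 RPKM in Que samples and 78.2 ± 8.24 RPKM in DMSO samples (SD, n = 4 each) and was the most abundant of the list, with a difference of 0.080 ± 0.16 on the log2 scale. The smallest unadjusted p values of the list belonged to brp and Pal2, with log2 fold changes of −0.32 (standard error 0.19) for brp and 0.15 (standard error 0.10) for Pal2. In nSyb, which encodes a synaptic vesicle protein and was picked out after its values were seen, the 4 Que samples at 7.25 to 7.65 RPKM all lay below the 4 DMSO samples at 7.85 to 8.30 RPKM. On the log2 scale nSyb differed by −0.12 (standard error 0.086), with an unadjusted p of 0.185 by limma and 0.0286, the smallest possible, by the exact permutation test.

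**Figure D5:**
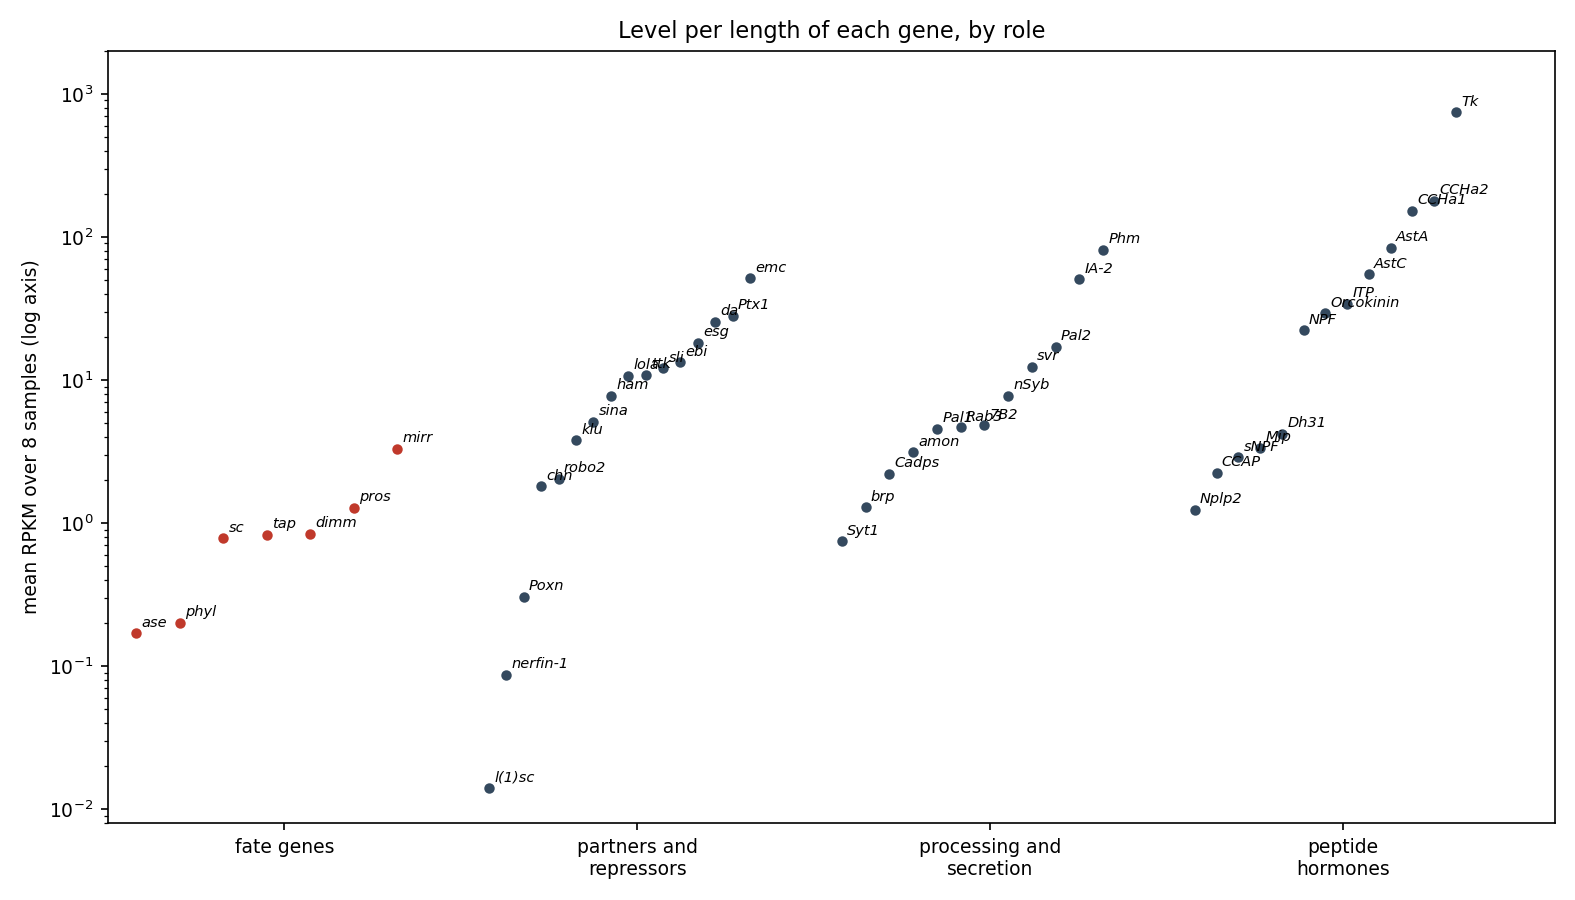
Mean RPKM over the 8 samples (log axis) of the fate genes, their partners and repressors, genes of peptide processing and secretion, and peptide hormones, each point a gene. The fate genes lie between 0.170 and 3.31 RPKM, and the hormones between 1.23 (Nplp2) and 742 (Tk) RPKM.

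Markers of other cells were checked because several members are also used in the nervous system and the ovary. Of 7 neuron markers, 3 were tested, and their summed level was 1.93 to 3.32 RPKM in Que samples and 2.5 to 3.14 RPKM in DMSO samples, most of it elav. Of the 3, elav was lower with Que on average (log2 fold change −0.17, at 2.10 RPKM with Que and 2.32 RPKM with DMSO), ChAT and Gad1 were higher (0.33 and 0.31), and the median was 0.31. The markers VAChT, VGlut, para and nAChRalpha7 stayed below 0.1 RPKM in every sample. The 7 ovary markers summed to 2.36 to 2.98 RPKM with Que and 2.70 to 6.19 RPKM with DMSO. Of the 6 tested, 5 had the lower mean log2 level with Que and 1 the higher, with a median log2 fold change of −0.26. The most abundant, vas, averaged 0.944 ± 0.289 RPKM in Que samples and 1.49 ± 0.658 RPKM in DMSO samples (SD, n = 4 each). The log2 fold change was −0.57 for vas (standard error 0.31) and −1.32 for osk (standard error 0.80). osk, an RNA of the female germ line, had 0 reads in all 4 Que samples, against 154 reads in DMSO 1 and 4, 4 and 2 reads in DMSO samples 2 to 4. Its part in the members' values was not tested. Without DMSO 1 the log2 fold change was 0.24 for sc, −0.062 for ase, −0.14 for phyl, 0.018 for pros, −0.055 for tap, −0.23 for dimm and −0.11 for mirr. Summed levels of the other markers overlapped between the groups. The 6 progenitor markers gave 47.0 to 71.0 RPKM with Que and 60.5 to 67.5 RPKM with DMSO. Of these, esg had the higher mean with Que and the other 5 the lower, with a median log2 fold change of −0.16. The smallest p values in this list were those of Dl, the Notch ligand gene (log2 fold change −0.26, standard error 0.14), and Sox21a (−0.29, standard error 0.18). The 6 muscle markers gave 636 to 990 RPKM with Que and 622 to 867 RPKM with DMSO, with a median log2 fold change of 0.12. Among them 5 were higher with Que, including Mlc2 (log2 fold change 0.25) and Prm (0.30), and up was lower (−0.18). The 6 enterocyte markers gave 10163 to 13566 RPKM with Que and 8580 to 10221 RPKM with DMSO, most of it from the digestive protease genes Jon65Aiv, alphaTry and betaTry. Of these 6, betaTry was higher with Que (log2 fold change 0.36, limma unadjusted p = 0.0424, adjusted p = 0.946). By mean, alphaTry (0.33), Jon65Aiv (0.22) and mex1 (0.095) were also higher with Que, whereas nub (−0.19) and Myo31DF (−0.091) were lower, as log2 fold changes. For 5 fat body markers the sums were 29.4 to 59.1 RPKM with Que and 34.1 to 47.4 RPKM with DMSO, with a median log2 fold change of −0.064. All 5 had a log2 fold change below 0, including Yp1 (−0.16) and apolpp (−0.18). The 5 Malpighian tubule markers summed to 22.9 to 28.0 RPKM with Que and 21.5 to 35.9 RPKM with DMSO, most of it Irk1 (log2 fold change 0.0081). The median over these 5 was −0.59, with Uro (−0.78), ZnT35C (−0.73) and salt (−0.59) lower with Que by mean and Best2 at 0.045. No other gene of these marker lists had an unadjusted p under 0.05 (limma).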

How the data were processed

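Per the paper's methods and the submitters' processing notes, the authors trimmed the reads with Trimmomatic 0.36, collapsed them into de-duplicated consensus sequences, mapped these with STAR 2.5.3a, counted them per gene with featureCounts and deposited RPKM in 1 table. The annotation release, the strand setting and the counting of read pairs are not given in the sources used here. Recovered reads were whole for 100% of the values (tolerance 0.01).

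Genes averaging 0.1 RPKM or more over the 8 samples were compared as log2(RPKM + 0.1), Que minus DMSO, with limma 3.58.1 in R 4.3.3 (intensity trend, two-sided, Benjamini-Hochberg over 13249 genes). On this scale, differences between samples shrink for genes of low RPKM, such as ase and phyl. The log2 fold change of ase was 0.16, and 0.27 with 0.01 RPKM added. That of phyl was −0.027, and −0.0010 with 0.01 RPKM added, so it was not larger there. The exact two-sided permutation test over 70 arrangements allows no p below 0.0286. Intervals are those of limma at 95%, and counting spreads cover counting error only. Python 3.11.15 was used for tables and figures. Members and gene lists were chosen with earlier results of these data known. Besides the members, the most abundant gene and the 2 genes of smallest p of a list were followed, with 3 genes most parallel to pros and any gene that overlaps a member. The labels do not state that samples were separate dissections, so the spread between these samples may be technical. Permutation p-values compare the difference of the group means with that in rearrangements of the same 8 samples, and so rest on this spread. In limma, each gene's spread is drawn toward that of genes of similar level. Its standard errors, intervals and p-values therefore do not measure the gene's own spread alone. No 2 samples of a group agreed within sampling noise. No sequences were printed, and positions are those of the deposited table.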

Additional observations from a re-analysis of the deposited data

Results flagged for a closer look

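In 36 groups of 4 samples, the 7 fate genes and the summed level of 11 gene lists in each group, 2 groups held 1 sample far from the other 3, where chance gives about 1 in 20 groups, or 1.8. Neither was a fate gene. The 5 Malpighian tubule markers summed to 22.9 RPKM in Que 1 and to 27.1 to 28.0 RPKM in the other Que samples, a gap of 0.8295 of the group's range. The 6 enterocyte markers summed to 8580 RPKM in DMSO 3 and to 9945 to 10221 RPKM in the other DMSO samples, a gap of 0.8321 of the range.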

How the results depend on the processing

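Under 18 alternatives, all planned with earlier results of these data known, 0 members had an unadjusted p under 0.05 in any fit (smallest 0.0611, dimm without Que 1). The direction of sc and dimm held in every alternative that gave a value; a filter at a mean of 1 RPKM leaves only mirr and pros. Of 121 alternative member values, 14 turned direction, and the cause was not tested. mirr turned to 0.0069 with median-of-ratios scaling and to 0.065 with the length trend removed. With single samples left out the log2 fold change ranged from −0.022 to 0.064 for pros, 0.078 to 0.42 for sc, −0.14 to 0.42 for ase, −0.25 to 0.14 for tap, −0.11 to 0.062 for mirr and −0.21 to 0.27 for phyl.

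Genes at an adjusted p under 0.05 numbered 0, but 2 with no filter, 3 without the intensity trend and 0 to 3 with single samples left out, all features of 3 to 12 reads over the 8 samples together. Genes at an unadjusted p under 0.05 numbered 479, and 315 with the filter at 1 RPKM, where fewer genes are tested, and 361 to 1195 with single samples left out (1195 without Que 2). With the replicate number as a block they numbered 1117. Deviations of same-numbered samples correlated at 0.23, 0.12, 0.013 and 0.029 for numbers 1 to 4, and samples 1 and 2 of each group, but not 3 and 4, correlated best with their own number. Neither the labels nor these values establish a pairing, and whether a number marks a shared batch was not tested. The block called 0 members.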
